A study of Homo sapiens with 12 samples.

Results

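The genes described here are 10 effectors of the integrated stress response: ATF4, ATF5, ATF3, DDIT3 (the gene of CHOP), CEBPB, CEBPG, CHAC1, PPP1R15A (GADD34), DDIT4 (REDD1) and SESN2. They were chosen by name, through the probes whose annotated symbol is one of the 10, which gave 14 of the 48803 probes on the array. The choice was made with earlier results of these data known, so shares of all genes set beside the 10 are descriptive. ATF4 and ATF3 each had 3 probes and the other 8 genes had 1 each. All 10 genes had a probe above background and were tested among 13556 genes. RNA came from the established cell line HDLM-2, derived from a human Hodgkin lymphoma, and was hybridised to 12 Illumina expression arrays in 4 groups of 3. Cells received 5 µM sorafenib, which blocks RAF kinases and a range of growth factor receptors, or 10 µM perifosine, an alkylphospholipid that inhibits AKT, or both agents at those doses as the combination, or neither agent as the control. All cells were collected after 24 hours of treatment. A single cell line was used, and the arrays read bulk RNA, so more cells with a transcript and more transcript per cell cannot be told apart.

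In the integrated stress response, stress-sensing kinases phosphorylate the translation initiation factor eIF2, which lowers translation in general while favouring a few mRNAs such as that of ATF4. ATF4, a basic leucine zipper transcription factor, then switches on genes of amino acid supply and further factors, among them DDIT3, ATF3 and ATF5, while PPP1R15A brings a phosphatase to eIF2 and closes the loop. In tumour cells the same factors are known to favour either adaptation or cell death. Much of its control is translational, and arrays read only mRNA levels.

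The plain result was that 5 of the 10 genes rose with sorafenib when its effect was averaged over cells with and without perifosine, namely CEBPG, DDIT3, ATF4, ATF5 and CHAC1, each by between 0.37 and 0.56 on the log2 scale. None fell. The calls of DDIT3 and CEBPG held with each array left out in turn. Those of ATF4, ATF5 and CHAC1 were lost in several such fits. The changes of these genes in such fits stayed between 0.34 and 0.66, with limma adjusted p up to 0.0921. Only 2 of the 10 genes were called without control B, sorafenib B or combination C, and 2 without the filter on dim probes. With its 3 probes averaged, ATF4 changed by 0.20 and did not pass (limma adjusted p = 0.239). The other 5, ATF3, SESN2, CEBPB, DDIT4 and PPP1R15A, did not pass. The share of all 13556 genes called in this comparison was 3.78%, with 2.57% called higher and 1.2% called lower. For 4 of the 10 genes all arrays with sorafenib lay above all arrays without it, against 2.59% of all genes. The median change of the 10 genes was 0.31, against -0.00 over all genes. Calls throughout are at a Benjamini-Hochberg adjusted p under 0.05 from limma, and changes are differences of log2 normalised signal, with their standard errors, for 3 arrays a group. Signals are the deposited linear intensities, given in the order of replicates A, B and C, in which a probe was above background at about 225.

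Promoter windows were searched for the letters of known response elements near the transcript starts of these genes. Sequence outside these windows was not searched, so elements further away would be missed. A C/EBP-ATF composite element, the site that ATF4 binds together with C/EBP partners, was searched as TGATGNAA on both strands in RefSeq windows (GRCh38.p14) of 250 bases before to 50 after each transcript start. It was present in 3 of the 17 windows of the 10 genes, each in a different gene, and in 3.62% of all 35116 windows. A full cAMP response element, TGACGTCA, was present in 1 of the 17 windows and in 1.85% of all windows. CCACG, which forms one end of the ER stress element, was present in 8 of the 17 windows, those of 6 genes, and in 38.09% of all windows. Windows of a gene can overlap, and those of ATF4 hold the same sites. The stretches that hold the first 2 of these elements are given with the matching bases in capitals, on the plus strand of the genome.
ATF3, chr1:212565190-212565249: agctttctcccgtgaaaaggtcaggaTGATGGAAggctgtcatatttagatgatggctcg
CEBPG, chr19:33374060-33374089: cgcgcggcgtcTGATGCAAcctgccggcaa
CHAC1, chr15:40953236-40953295: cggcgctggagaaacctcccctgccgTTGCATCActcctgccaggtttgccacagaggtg
PPP1R15A, chr19:48872337-48872396: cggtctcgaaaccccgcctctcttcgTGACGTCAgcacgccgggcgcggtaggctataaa
In CHAC1 the element reads on the minus strand. The CEBPG match lies inside the gene, 42 bases before a later transcript start, and the window of the first CEBPG start held none. Of the 3 genes with the composite element, CEBPG and CHAC1 rose with sorafenib and ATF3 did not pass. A match of letters describes the window and says nothing of binding in these cells.

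ATF4 (chr22:39520559-39522686, RefSeq on GRCh38.p14 as for all positions here), the central factor of the response, had signals of 43692, 46134 and 47146 in sorafenib cells and 42874, 45993 and 43930 in combination cells. It had 36072, 38191 and 32240 in perifosine cells and 32471, 31138 and 38820 in control cells. All 6 arrays with sorafenib lay above all 6 without it, and the single-agent perifosine and control arrays overlapped. ATF4 rose with sorafenib by 0.37 ± 0.08 (averaged effect, 95% confidence interval 0.20 to 0.55, limma adjusted p = 0.0211), a 1.30-fold difference. The change was 0.43 ± 0.11 for sorafenib against control and 0.32 ± 0.11 for the combination against perifosine, and neither passed alone (limma adjusted p = 0.107 and 0.236). The averaged call held in 7 of the 12 fits with an array left out, with changes between 0.34 and 0.42.

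The 3 ATF4 probes did not behave alike. A second probe, annotated to another transcript of the gene, had 3961, 4214 and 4125 in sorafenib cells, 4465, 4383 and 5217 in combination cells, 3240, 3621 and 3136 in perifosine cells, and 3672, 3075 and 3664 in control cells. It again separated all arrays with sorafenib from all without, with an averaged change of 0.38 ± 0.08 (limma adjusted p = 0.0287 over 18457 probes). The third and dimmest probe had 689, 576 and 413 in sorafenib cells, 611, 420 and 448 in combination cells, 594, 492 and 500 in perifosine cells, and 663, 506 and 646 in control cells. Its groups overlapped, its averaged change was -0.17 ± 0.17 (limma adjusted p = 0.678), and averaging the 3 probes gave a change of 0.20 that did not pass (limma adjusted p = 0.239). The dimmest and the brightest probe are annotated to the same transcript, and why they differ was not tested.

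CEBPG, a C/EBP protein that pairs with ATF4, gave the smallest adjusted p of the 10 genes. Its signals were 13036, 13501 and 11989 in sorafenib cells, 12026, 13091 and 13396 in combination cells, 11184, 9608 and 9115 in perifosine cells, and 9564, 8779 and 9239 in control cells. All arrays with sorafenib lay above all without it, and perifosine replicate A stood closest to them. CEBPG rose by 0.43 ± 0.08 (averaged effect, 95% confidence interval 0.26 to 0.60, limma adjusted p = 0.00868). Against the control the change was 0.49 ± 0.11 both with sorafenib and with the combination, and neither passed alone (limma adjusted p = 0.0610 and 0.0748). The averaged call held with each of the 12 arrays left out in turn. The gene lies at chr19:33373709-33382686.

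DDIT3 encodes CHOP, a C/EBP family factor known for promoting cell death when stress persists. It had 867, 817 and 681 in sorafenib cells, 851, 677 and 775 in combination cells, 600, 562 and 612 in perifosine cells, and 577, 615 and 549 in control cells. The 2 sets of arrays, with and without sorafenib, did not overlap, and perifosine and control cells covered nearly the same range. DDIT3 rose by 0.49 ± 0.09 (averaged effect, 95% confidence interval 0.29 to 0.70, limma adjusted p = 0.0126), a 1.41-fold difference. The change was 0.45 ± 0.13 for the combination against perifosine (limma adjusted p = 0.164). Here too the averaged call held with each of the 12 arrays left out. The gene lies at chr12:57516588-57520517.

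ATF5, a relative of ATF4 whose mRNA is likewise translated preferentially under eIF2 phosphorylation, had 7246, 5721 and 5585 in sorafenib cells and 7491, 5782 and 6696 in combination cells. Perifosine cells had 4552, 3159 and 5358, and control cells had 4462, 4210 and 4996. No array with sorafenib fell among those without it, and perifosine arrays were the most spread, with replicate B lowest of all 12. ATF5 rose by 0.55 ± 0.13 (averaged effect, 95% confidence interval 0.27 to 0.83, limma adjusted p = 0.0369). The change was 0.65 ± 0.18 for the combination against perifosine and 0.44 ± 0.18 for sorafenib against control (limma adjusted p = 0.140 and 0.279). The averaged call held in 4 of the 12 fits with an array left out, and the change stayed between 0.44 and 0.63. The gene lies at chr19:49928906-49933935.

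CHAC1, an enzyme that breaks down glutathione and a target of ATF4 and CHOP, had signals near background: 309, 367 and 329 in sorafenib cells, 344, 361 and 332 in combination cells, 298, 217 and 255 in perifosine cells, and 313, 271 and 283 in control cells. Of the 6 arrays with sorafenib, 5 lay above the highest array without it, and perifosine replicate B was below the background threshold. CHAC1 rose by 0.56 ± 0.13 (averaged effect, 95% confidence interval 0.27 to 0.84, limma adjusted p = 0.0383), and by 0.33 where the background was not corrected. Its change for the combination against perifosine was 0.77 ± 0.19 (limma adjusted p = 0.0953), and 0.44 without background correction. The averaged call held in 4 of the 12 fits with an array left out, with changes between 0.44 and 0.66. The gene lies at chr15:40953471-40956512.

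**Figure D1:**
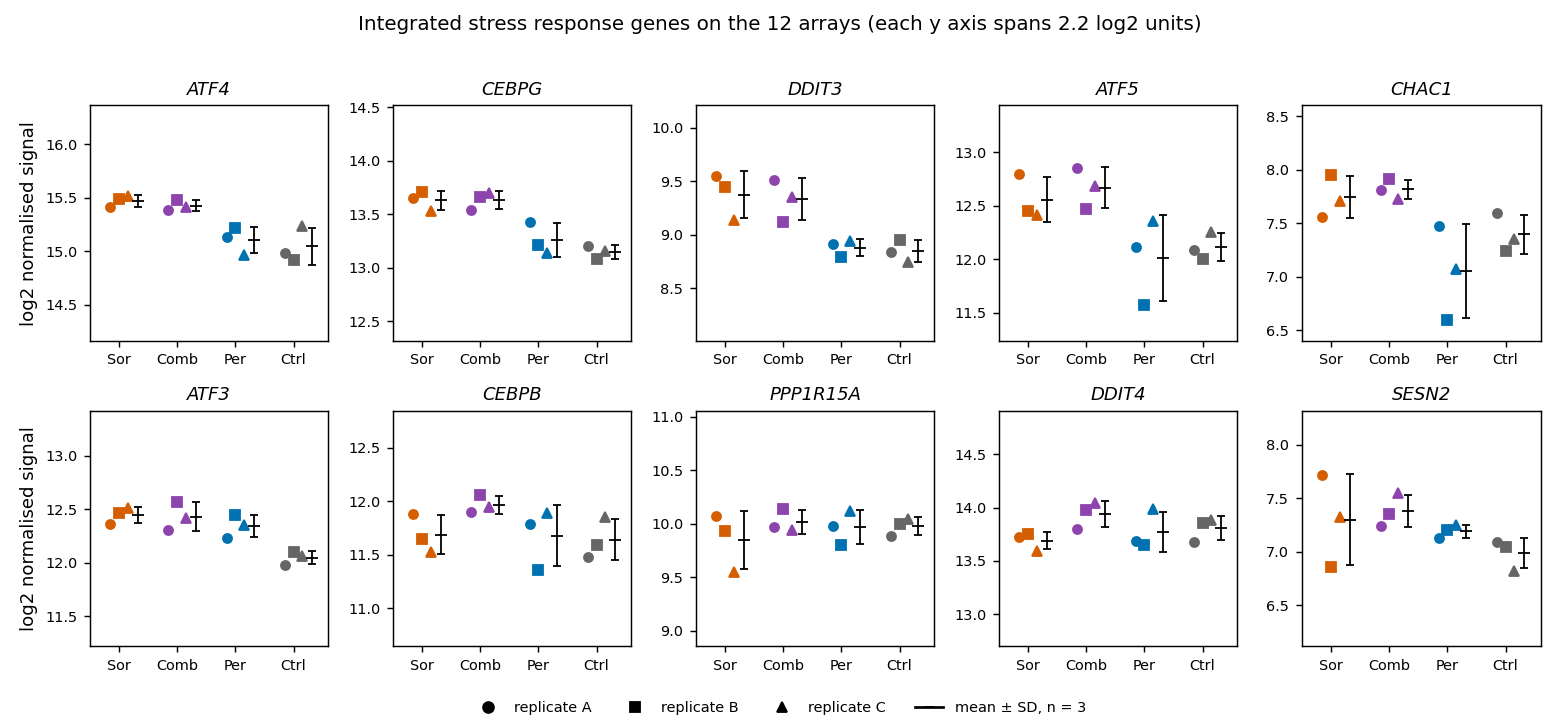
Log2 normalised signal (y axes) of the 10 genes on the 12 arrays, with sorafenib (Sor), combination (Comb), perifosine (Per) and control (Ctrl) cells from left to right, marker shape for the replicate letter, and bars for the mean and SD of 3 arrays. For ATF4, CEBPG, DDIT3 and ATF5 all 6 arrays with sorafenib sit above the 6 without it, and for PPP1R15A and DDIT4 the arrays with and without sorafenib overlap.

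ATF3, a stress-induced factor downstream of ATF4, had a pattern of its own. Its brightest probe had 5386, 5796 and 5965 in sorafenib cells, 5175, 6210 and 5602 in combination cells, 4930, 5696 and 5367 in perifosine cells, and 4159, 4513 and 4415 in control cells. All 9 arrays with any drug lay above the 3 control arrays, as they did for 0.922% of all genes and for none of the other members. The change against the control was 0.40 ± 0.11 with sorafenib, 0.38 ± 0.11 with the combination and 0.30 ± 0.11 with perifosine, and none passed (limma adjusted p = 0.111, 0.158 and 0.991). The combination differed from perifosine by 0.09 ± 0.11, and the averaged sorafenib effect of 0.24 ± 0.08 did not pass (limma adjusted p = 0.104).

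The other ATF3 probes were dim. The second had signals of 179 to 303 in sorafenib cells, 257 to 283 in combination cells, 254 to 271 in perifosine cells and 250 to 263 in control cells, with an averaged change of -0.09 ± 0.21. It is annotated to the same transcript as the brightest probe, but its change for sorafenib against control was -0.22 ± 0.29. Why these probes differ was not tested. The dimmest was above background on 0 of the 12 arrays. ATF3 lies at chr1:212565407-212620777.

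**Figure D2:**
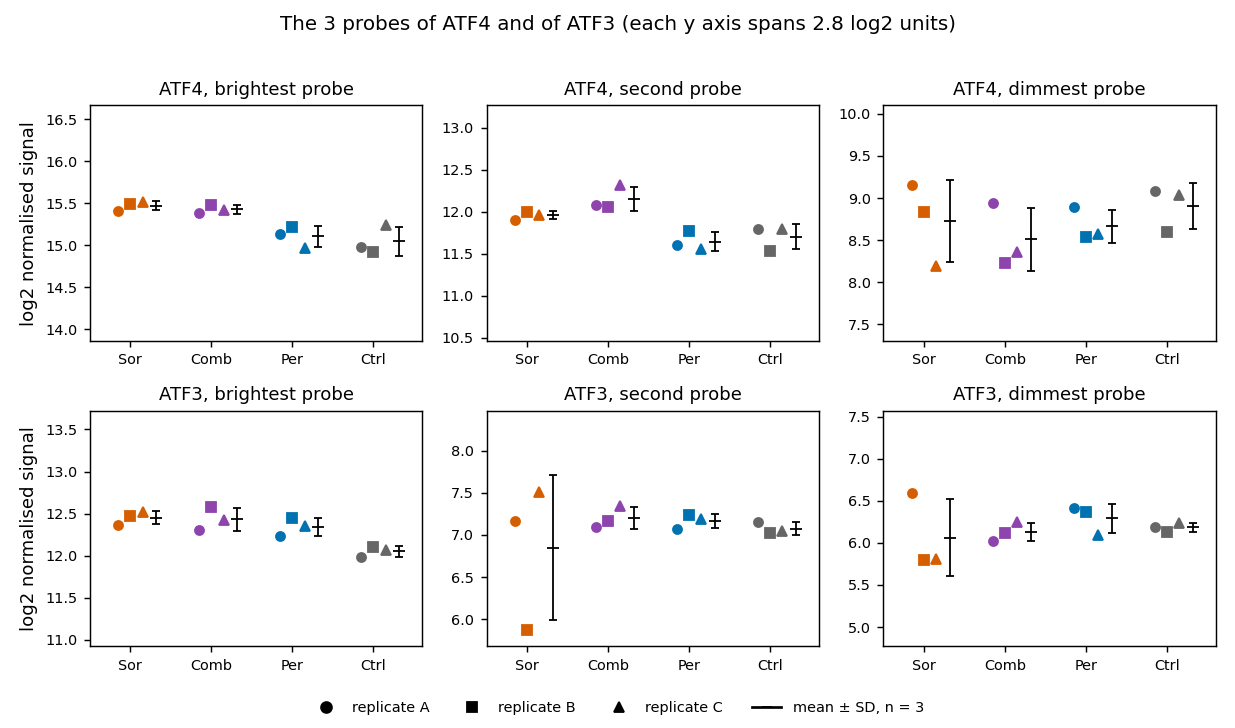
Log2 normalised signal (y axes) of the 3 probes of ATF4 (top) and of ATF3 (bottom) in sorafenib (Sor), combination (Comb), perifosine (Per) and control (Ctrl) cells, with marker shape for the replicate letter and bars for the mean and SD of 3 arrays. The 2 brighter ATF4 probes are higher on the arrays with sorafenib, the dimmest is not, and ATF3 separates drug-treated from control arrays at its brightest probe only.

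CEBPB (chr20:50190583-50192690), the C/EBP factor whose isoforms both activate and repress stress genes, had 3897, 3336 and 3073 in sorafenib cells, 3934, 4378 and 4059 in combination cells, 3653, 2741 and 3916 in perifosine cells, and 2970, 3212 and 3825 in control cells. The combination arrays were the highest 3 of the 12, by a narrow margin. CEBPB changed by 0.32 ± 0.15 in the combination against control and by 0.28 ± 0.15 against sorafenib (limma adjusted p = 0.426 and 0.833). Its averaged sorafenib effect was 0.17 ± 0.11 (limma adjusted p = 0.464).

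SESN2 (chr1:28259518-28282491), a sestrin that restrains the growth kinase mTORC1 when amino acids are short, was close to background at 331, 236 and 280 in sorafenib cells, 272, 284 and 307 in combination cells, 260, 267 and 272 in perifosine cells, and 257, 252 and 233 in control cells. Combination and perifosine arrays lay above all control arrays, while the sorafenib arrays ranged from within the control values to above all other arrays. The averaged sorafenib effect was 0.25 ± 0.12, with a 95% confidence interval of -0.02 to 0.52 (limma adjusted p = 0.312).

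The remaining 2 genes, both negative regulators, gave the smallest averaged effects. PPP1R15A (chr19:48872421-48876058), the stress-induced partner of the eIF2 phosphatase, had 1194, 1097 and 868 in sorafenib cells, 1121, 1249 and 1101 in combination cells, 1131, 1012 and 1234 in perifosine cells, and 1068, 1142 and 1179 in control cells. DDIT4 (chr10:72273924-72276036), an inhibitor of mTORC1 through the TSC complex, had 13633, 13902 and 12507 in sorafenib cells, 14378, 16190 and 16943 in combination cells, 13278, 12972 and 16383 in perifosine cells, and 13210, 14911 and 15235 in control cells. The arrays with and without sorafenib overlapped for both genes.

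The averaged effect was -0.04 ± 0.10 for PPP1R15A (95% confidence interval -0.25 to 0.17, limma adjusted p = 0.876) and 0.02 ± 0.09 for DDIT4 (-0.16 to 0.21, limma adjusted p = 0.921). The upper bounds of these intervals lie below the estimated changes of all 5 genes that rose, but the genes were not tested against each other. The widest difference of DDIT4 was 0.25 ± 0.12 in the combination against sorafenib (limma adjusted p = 0.825), where its 3 combination arrays all lay above the 3 sorafenib arrays.

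**Figure D3:**
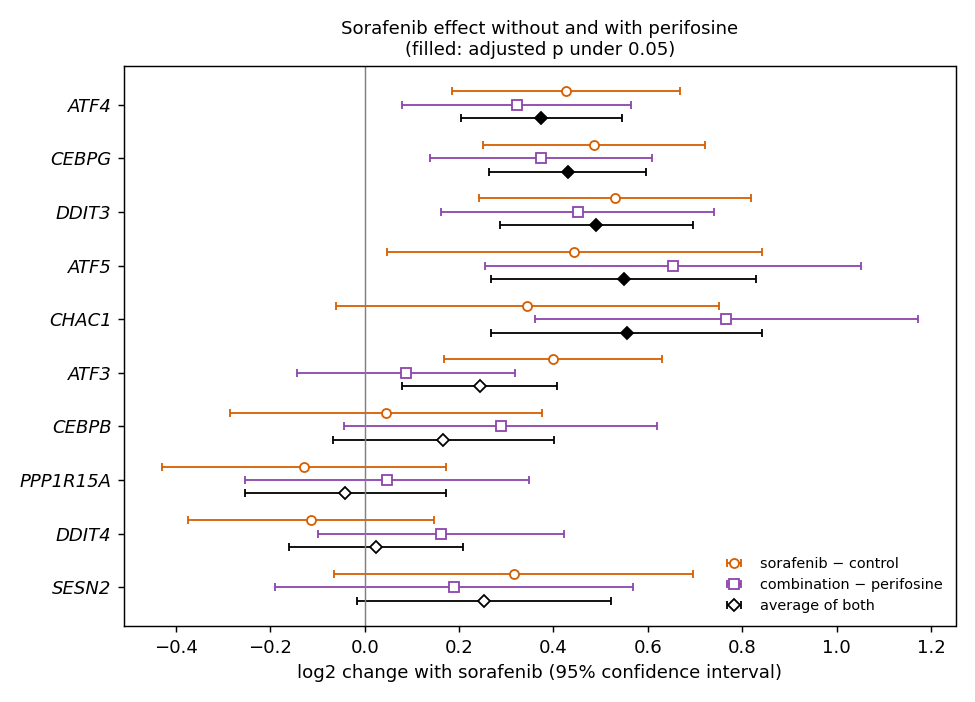
Log2 change with sorafenib (x axis, with 95% confidence intervals) for each of the 10 genes, as sorafenib minus control (circles), combination minus perifosine (squares) and the average of both (diamonds), filled where the limma adjusted p was under 0.05. The averages of ATF4, CEBPG, DDIT3, ATF5 and CHAC1, from 0.37 to 0.56, are filled, and no single comparison is.

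The single comparisons asked the same question with 3 arrays a side. For sorafenib against control, limma called 0 of the 10 genes, where it called 0.819% of all genes. The smallest adjusted p was 0.0610, and 5 of the 10 genes were higher at an unadjusted p under 0.05, as were 7.92% of all genes. The arrays did not overlap for 5 of the 10 genes, ATF4, ATF3, ATF5, DDIT3 and CEBPG, against 11.4% of all genes that were higher without overlap.

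In combination cells against control cells, limma called 0 of the 10 genes and 0.627% of all genes. All 10 changes were above 0, with a median of 0.39 against 0.00 over all genes. Of the 10 genes 7 were higher at an unadjusted p under 0.05, against 6.82% of all genes, and 8 were higher without overlap, against 11.1%. PPP1R15A and DDIT4 were the 2 that overlapped.

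Combination cells were then set against perifosine cells, and limma called 0 of the 10 genes and 0.716% of all genes. All 10 changes were again above 0, with a median of 0.31, and 6 genes were higher without overlap, against 9.86% of all genes. At an unadjusted p under 0.05, 5 of the 10 genes were higher, against 7.45% of all genes. This comparison shares no array with that of sorafenib against control, and 8 of the 10 genes were higher in both, against 27.8% of all genes.

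Perifosine alone left no called difference. For perifosine against control, limma called 0 of the 10 genes and 0% of all genes, while 4.01% of all genes had an unadjusted p under 0.05. ATF3 was the only one of the 10 with an unadjusted p under 0.05 (limma, unadjusted p = 0.0165). The arrays were higher without overlap for 2 of the 10 genes, ATF3 and SESN2, against 4.24% of all genes. The intervals for the genes that rose with sorafenib ran from -0.18 to 0.30 for ATF4, -0.12 to 0.35 for CEBPG, -0.25 to 0.32 for DDIT3 and -0.50 to 0.30 for ATF5. CHAC1 changed by -0.35 ± 0.19, with an interval of -0.75 to 0.06. This value ranged from -0.56 without perifosine A to -0.12 without perifosine B, the array below background.

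Between combination and sorafenib cells, limma called 0 of the 10 genes and 0% of all genes, while 6.05% of all genes had an unadjusted p under 0.05 and none of the 10 did. The changes were -0.04 ± 0.11 for ATF4, -0.00 ± 0.11 for CEBPG and -0.04 ± 0.13 for DDIT3. CEBPB and DDIT4 were higher without overlap, against 6.11% of all genes. The interval was -0.24 to 0.23 for CEBPG and -0.25 to 0.22 for ATF3, and was wider for the other members. It was -0.29 to 0.51 for ATF5, -0.33 to 0.48 for CHAC1 and -0.05 to 0.61 for CEBPB. Differences within each gene's interval remain possible.

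The interaction, which asks whether sorafenib acted differently in the presence of perifosine, was also called for 0 of the 10 genes and 0% of all genes, with 7.58% of all genes under an unadjusted p of 0.05 and none of the 10. The estimates with the smallest unadjusted p were -0.31 ± 0.15 for ATF3, 0.28 ± 0.17 for DDIT4 and 0.42 ± 0.27 for CHAC1 (limma adjusted p = 0.651, 0.696 and 0.705). Each gene's interaction had a larger standard error, from 0.15 for ATF3 to 0.27 for CHAC1, than its pairwise differences. The F test among the 4 groups called 0 of the 10 genes and 0.959% of all genes, with CEBPG (limma adjusted p = 0.0679) and DDIT3 (limma adjusted p = 0.0997) nearest.

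The wider pathway was described through lists of genes with known roles, also chosen with earlier results of these data known. The shares of all genes given beside them are therefore a description and not an independent test. Of the ATF4 and CHOP targets, the genes these factors switch on, 37 of 42 listed were tested. With sorafenib (averaged effect) 11 rose, 0 fell and 26 did not pass, against 2.57% of all genes called higher and 1.2% called lower. Of the 37, 34 were above 0, against 49.0% of all genes, and the median change was 0.26 against -0.00. The single comparisons gave 7 higher for sorafenib against control, 7 for the combination against control and 5 for the combination against perifosine, where 0.819%, 0.627% and 0.716% of all genes were called in either direction.

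The 5 targets with the smallest adjusted p are given next. PSAT1, an enzyme of serine synthesis, averaged 8251 in sorafenib, 8634 in combination, 4412 in perifosine and 3927 in control cells, and rose by 1.04 ± 0.07 (averaged effect, limma adjusted p = 1.26e-05). ASNS, the asparagine synthetase, averaged 21004 ± 1608 in sorafenib, 21586 ± 1381 in combination, 12498 ± 1092 in perifosine and 10925 ± 897 in control cells (SD, n = 3 each) and rose by 0.87 ± 0.08, while its second probe changed by 0.52 ± 0.18 and did not pass (limma adjusted p = 0.142 over the probes). INHBE, an inhibin subunit, rose by 1.12 ± 0.15, VLDLR, a lipoprotein receptor, by 0.86 ± 0.08 and CTH, which makes cysteine from cystathionine, by 0.79 ± 0.09. TRIB3, a pseudokinase that restrains ATF4 and CHOP, changed by 0.31 ± 0.11 and did not pass (limma adjusted p = 0.135).

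Upstream of ATF4, no gene passed. The 4 eIF2 kinases changed by 0.09 for EIF2AK1, -0.13 for EIF2AK2, 0.19 for EIF2AK3 and 0.10 for EIF2AK4. Of the eIF2 and eIF2B subunits 7 were tested, with a median of -0.03. For the 4 listed genes of the eIF2 phosphatase, PPP1CA, PPP1CB, PPP1CC and PPP1R15B, the median was -0.02. PPP1R15B, the constitutive relative of PPP1R15A, changed by -0.09. Kinase activity and eIF2 phosphorylation were not measured by these arrays.

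Among 18 other basic leucine zipper factors tested, 0 rose and 1 fell. MAFF, a small Maf protein, averaged 495 in sorafenib, 508 in combination, 648 in perifosine and 749 in control cells and fell by 0.60 on the log2 scale (standard error 0.11, limma adjusted p = 0.0114), while its 2 other probes changed by -0.00 and -0.01. Of 6 tested paralogues of the 10 genes, PPP1R15B again among them, none passed, and their median was -0.08.

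The ER stress branch that runs through ATF6 and XBP1 showed no called gene. Of its 16 targets, the chaperones and folding enzymes of the endoplasmic reticulum, 0 rose and 0 fell, 12 were below 0 and the median was -0.11. HSPA5, the chaperone BiP, changed by -0.33 ± 0.10 (limma adjusted p = 0.0763), and XBP1 itself by 0.11. Partners of DDIT4 and SESN2 in the TSC and GATOR2 complexes gave 0 called of 10 tested with a median of -0.02. Targets of p53, which shares several genes with this response, gave 0 called of 11 tested with a median of 0.03, and CDKN1A changed by -0.07.

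**Figure D4:**
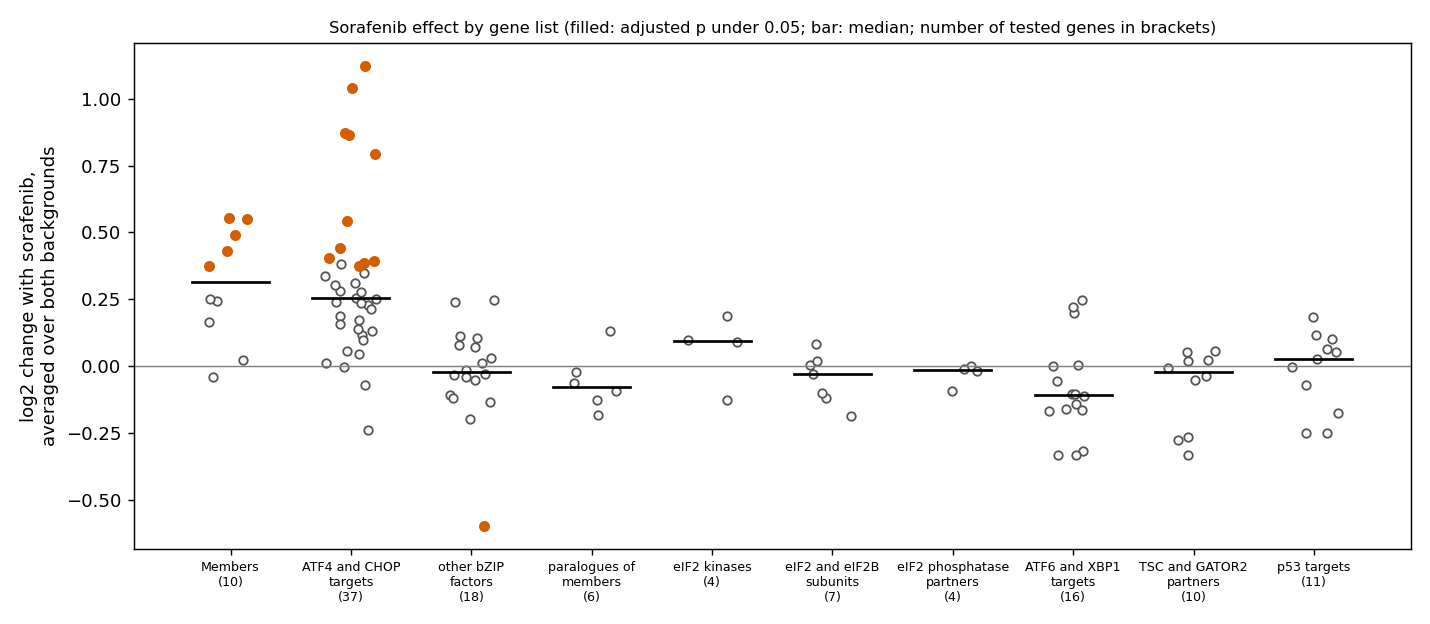
Log2 change with sorafenib, averaged over cells with and without perifosine (y axis), for each tested gene of the 10 effectors and of 9 related lists (x axis, number tested in brackets), filled where the limma adjusted p was under 0.05 and with a bar at each median. The medians of the effectors (0.31) and of the ATF4 and CHOP targets (0.26) stand above those of the other lists drawn, which run from -0.11 to 0.09; cell type markers are not drawn.

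The profile over the 12 arrays was matched against all tested genes as a description. For DDIT3 the closest genes were CRIP1, INHBE and SERPINA1, of which INHBE is also on the list of targets. For CEBPG they were CD44, RIGI and MIR99AHG, for ATF4 NMT2, MRAP2 and CD44, for ATF5 PCED1B, CYP4F12 and CMTM3, and for CHAC1 FILIP1L, LHB and NADSYN1. For ATF3 they were CPPED1, HLA-DPB1 and CTH, the last also a target. The genes that did not pass had KLHL22, TMEM42 and PITX1 closest to CEBPB, TAMALIN, ITSN1 and WDR49 to PPP1R15A, TAP1, CELF2-AS2 and ASB2 to DDIT4, and NCAM2, POU3F1 and IFT46 to SESN2. The measure of likeness was Pearson's r over the 12 arrays, which share the 4 groups, and it ran from 0.83 for IFT46 with SESN2 to 0.97 for NMT2 with ATF4.

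As to the arrays themselves, 21869 to 22012 probes were above background on each, the median signal was about 216 on all, and replicates within a group correlated at 0.988 to 0.994. The deposited values had nearly the same distribution on all 12 arrays, so the like medians and counts above background say nothing of array quality. Of 10 Hodgkin cell markers 9 were above background on all 12 arrays, among them CCL17 (20520 to 40017) and TNFRSF8, the CD30 gene (384 to 601), and IL13 was on none. Their summed signal was 78271 to 85226 in sorafenib, 81289 to 83858 in combination, 58708 to 63147 in perifosine and 65775 to 70340 in control cells. Of the 9 tested markers 3 rose in the averaged sorafenib effect, CCL17 by 0.54 ± 0.09, TRAF1 by 0.53 ± 0.09 and FSCN1 by 0.43 ± 0.08, 0 fell, and the median was 0.18. In the combination against perifosine 2 were higher. These markers moved in the same direction as the genes that rose, and their part in those results was not tested. Of 5 measured B cell markers 1 was above background on all arrays and PAX5 and CD22 were on none. Of 6 T cell markers 1, CD2, was, of 6 myeloid markers 3 and of 6 stromal and endothelial markers 1. The summed B cell signal was 1006 to 1126 in sorafenib, 1059 to 1142 in combination, 1007 to 1172 in perifosine and 1071 to 1134 in control cells. The summed T cell signal, nearly all of it CD2, was 15202 to 15574 in sorafenib, 14975 to 15952 in combination, 14216 to 15504 in perifosine and 12963 to 14816 in control cells. Myeloid markers summed to 2448 to 2587 in sorafenib, 2660 to 2717 in combination, 2213 to 2552 in perifosine and 2363 to 2601 in control cells. Stromal and endothelial markers summed to 1353 to 1416 in sorafenib, 1340 to 1368 in combination, 1326 to 1347 in perifosine and 1336 to 1371 in control cells.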

How the data were processed

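Total RNA of HDLM-2 cells was labelled with biotin and read on Illumina arrays, as the labels' protocols state. The authors deposited processed intensity values on a linear scale, with 1 value for each probe on each array. Per the submitters' processing notes the software was BeadStudio, and how they normalised is not given in the sources used. Sorted by size, the intensity values differed between arrays by a median of 0.0519% and by 1.09% at most, and the lowest value was 109.7. A second table of non-normalized values has 24 columns that match no sample label and was not used. Precision is limited by the number of arrays, 3 a group. Nothing says that these came from separate cultures, so the spread that p-values measure may be technical. The sources used name no slide or scan batch.

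Values were corrected with normexp (offset 16), quantile normalised and set to log2. Probes passed when above background (a signal of about 225, the upper 5% point of the dim probes) on 3 or more arrays, and 25143 did. The platform annotation gave 1 symbol for 28098 probes, several for 13 and did not list 20692, and 28059 had an Entrez identifier in RefSeq (GRCh38.p14). Each gene took its brightest passing probe. All 12 arrays entered 1 limma fit (version 3.58.1 in R 4.3.3; 13.1 degrees of freedom, median residual SD 0.18) of the 4 group means, with 7 contrasts and an F test. Adjustment followed Benjamini and Hochberg over all genes, contrast by contrast. The method was tested on simulated data with errors drawn independently for each gene and array, so shared deviations between arrays were not covered.

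The members and lists were chosen with earlier results of these data known. All 10 members were named at every probe. From other lists up to 5 called genes with the smallest adjusted p of the averaged sorafenib effect were named, and EIF2AK1 to EIF2AK4, PPP1R15B, TRIB3, ASNS, XBP1, HSPA5 and CDKN1A whatever their values. Genes of like profile were the 3 with the highest correlation over the arrays. Alternatives were the background correction, normalization, filter, probe rule, array weights, variance model, arrays in the fit, the replicate letter as a block and each array left out.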

Additional observations from a re-analysis of the deposited data

How the results depend on the processing

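No called change of the 10 genes was reversed under the 23 alternatives. DDIT3 and CEBPG kept their call in the averaged sorafenib effect under all 22 alternatives run for it, with changes of 0.40 to 0.55 and 0.40 to 0.47. ATF4 was called under 15 of the 22, ATF5 under 13 and CHAC1 under 11. ATF4 lost its call without control A or B, perifosine C, sorafenib B or combination C. ATF5 lost it without any control array, perifosine A, sorafenib A or B, or combination A or C, and CHAC1 without control B or C, perifosine C, sorafenib B or C, or any combination array. With each array left out in turn the limma adjusted p was at most 0.0617, 0.0879 and 0.0921 for these genes. The count of 5 members called was 2 without the filter on dim probes, where 247 of all genes were called, and 2 to 5 with an array left out: 2 without control B, sorafenib B or combination C, and 3 without control A, control C, perifosine C or combination A. ATF3 joined the calls without background correction (limma adjusted p = 0.0440) and with array weights (0.0365). Over all 22 alternatives its averaged change ran from 0.07 to 0.28, and its limma adjusted p reached 0.803.

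For sorafenib against control the 0 members called became 4 without background correction, 1 with offset 50, 1 with a stricter filter, 2 with array weights and 3 with a trended, robust variance (0 with any array left out). In the combination against control they became 1 without background correction, 1 with offset 50, 1 with array weights and 2 with the trended variance (0 with any array left out). Against perifosine the combination gave 1 and 2 without background correction and with the trended variance, and 0 to 1 with an array left out, the 1 being CHAC1 without perifosine A. The F test gave 3, 1, 1, 2 and 3 without background correction, with offset 50, the stricter filter, array weights and the trended variance, and 0 with any array left out. Perifosine against control, the combination against sorafenib and the interaction gave 0 members under all alternatives. The cause was not tested.

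Counts over all genes moved more. For sorafenib against control, 111 became 251 without background correction, 169 with offset 50, 40 without the filter, 238 with array weights, 242 with the trended variance, 23 with only those 6 arrays fitted and 37 to 166 with an array left out. In the combination against control, 85 became 203, 55, 209, 187 and 52 for the same settings other than the offset, 137 without perifosine B and sorafenib C, and 34 to 116 with an array left out. Against perifosine, 97 became 247, 41, 289, 249 and 23, and 24 to 100. For the averaged effect, 512 became 815 without background correction, 247 without the filter, 969 with array weights and 273 to 505 with an array left out. The replicate letters did not pair the arrays: of 18 same-letter pairs, correlations of deviations ran from -0.24 to 0.21, and 3 of 12 arrays matched their own letter best. Among 36 pairs with different letters the correlations ran from -0.35 (perifosine B, sorafenib A) to 0.39 (perifosine B, sorafenib C). Perifosine B and sorafenib C are the arrays left out together in 1 alternative, and why their deviations were alike was not tested. With the replicate letter as a block, 4 members were called in the averaged effect, CHAC1 not passing (limma adjusted p = 0.0608), and 48, 54 and 45 of all genes in sorafenib against control, the combination against control and the combination against perifosine. CHAC1, SESN2 and the dimmer ATF3 probes lie close to background, which limits how well their changes were measured.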
